A study of Mus musculus with 36 samples.

Results

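Transcriptomes of RAW264.7 macrophages cultured with the peptide 65–79*PE were set against those of PBS cultures, once with IFNγ and once with IL-4, and the 2 changes were compared gene by gene as a difference of differences. RAW264.7 is a mouse macrophage-like tumor line. The peptide is a 15-mer from the third allelic hypervariable region of the HLA-DRβ chain coded by a protective allele, and it carries the protective epitope (PE). The libraries were 24 of the 36 in the series, in 4 groups of 6: PBS and PE of the IFNγ table, and PBS and PE of the IL-4 table, while the 12 libraries of the shared epitope peptide (SE) served only in an alternative fit. PE cells received 100 µg/ml of peptide with 5 ng/ml of IFNγ (M1 polarizing conditions) or 5 ng/ml of IL-4 (M2 polarizing conditions), and cells were cultured for 72 h. Whether the PBS cells of a table also received its cytokine is not given by the labels, so a change of PE against PBS holds whatever differed between those cultures, and a part of the cytokine and a part of the peptide cannot be told apart in it. All libraries came from 1 cell line with no other genetic change given, so every statement below is about cultures and not about animals. Of the 49568 genes listed, 15924 had enough reads to be tested. The compared quantity was always the change of PE against PBS within a table, never a level between tables. Throughout, “with IFNγ” and “with IL-4” name the table and do not state that its PBS cells received the cytokine.

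IFNγ and IL-4 are the classical agents of opposed macrophage activation. IFNγ acts through JAK kinases and the gamma-activated site (GAS) of its target genes, and it raises a next layer of factors such as IRF1 that act at interferon-stimulated response elements (ISRE). IL-4 acts through its receptor chain IL-4Rα on STAT6, whose palindromic site has a longer spacer. In macrophages the former pathway is known for antigen presentation, interferon-induced GTPases and nitric oxide synthesis, and the latter for C-type lectin receptors, arginase and the regulators CISH and EGR2.

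Promoters that hold a match were picked by hand to show those sites in genes that turned opposite ways, were shared, or moved with a single cytokine. They do not stand for their classes, whose shares follow below. None is of a gene lowered with IFNγ and raised with IL-4. Each line holds the 150 bases before the annotated start of transcription, read 5′ to 3′ on the gene's strand from RefSeq promoters of build GRCm38.p6. Capitals mark matches, on either strand, to TTCNNNGAA (GAS), TTCNNNNGAA (the STAT6 spacing) or GAAANNGAAA (ISRE), and matches that overlap were counted as 1 gene.
Gbp2 (chr3:142620513-142620662, plus strand, raised with IFNγ and lowered with IL-4): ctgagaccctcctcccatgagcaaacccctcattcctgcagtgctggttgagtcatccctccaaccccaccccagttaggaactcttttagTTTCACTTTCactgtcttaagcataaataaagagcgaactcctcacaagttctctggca
Isg15 (chr4:156200819-156200968, minus strand, raised with IFNγ and lowered with IL-4): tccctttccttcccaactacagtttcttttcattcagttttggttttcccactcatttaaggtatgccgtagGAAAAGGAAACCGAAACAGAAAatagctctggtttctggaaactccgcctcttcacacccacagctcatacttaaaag
Irgm2 (chr11:58214827-58214976, plus strand, raised with IFNγ and lowered with IL-4): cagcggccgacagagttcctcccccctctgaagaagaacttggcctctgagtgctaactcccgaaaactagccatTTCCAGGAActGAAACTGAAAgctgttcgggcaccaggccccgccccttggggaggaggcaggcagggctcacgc
Irf1 (chr11:53769864-53770013, plus strand, IFNγ alone): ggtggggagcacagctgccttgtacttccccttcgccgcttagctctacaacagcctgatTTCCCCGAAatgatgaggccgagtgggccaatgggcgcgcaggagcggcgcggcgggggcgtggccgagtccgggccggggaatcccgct
Clec7a (chr6:129472780-129472929, minus strand, raised with both cytokines): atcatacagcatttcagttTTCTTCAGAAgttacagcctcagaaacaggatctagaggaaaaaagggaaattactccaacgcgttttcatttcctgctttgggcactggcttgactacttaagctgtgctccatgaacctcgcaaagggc
Itgax (chr7:128129400-128129549, plus strand, raised with both cytokines): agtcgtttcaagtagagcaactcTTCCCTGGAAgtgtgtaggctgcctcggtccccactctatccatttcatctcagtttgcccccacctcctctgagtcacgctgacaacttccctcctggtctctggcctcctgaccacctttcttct
Pdcd1lg2 (chr19:29410769-29410918, plus strand, IL-4 alone): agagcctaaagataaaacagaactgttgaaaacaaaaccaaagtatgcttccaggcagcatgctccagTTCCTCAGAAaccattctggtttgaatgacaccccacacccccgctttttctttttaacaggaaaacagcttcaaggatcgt
The capitals of Gbp2 are an ISRE on the opposite strand, 59 bases before the start. Isg15 had 3 overlapping ISRE matches that began 78, 72 and 66 bases before it. In Irgm2 a GAS match at 75 bases was followed by an ISRE at 64 bases, and Irf1 had a GAS match at 90 bases. The STAT6 spacing stood 131, 127 and 82 bases before the starts of Clec7a, Itgax and Pdcd1lg2.

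The motifs were counted in the full 300-base windows (250 bases before the start and 50 from it on) of the 9432 tested genes with an entry. Over all of them 6.98% held a GAS match, 5.46% the STAT6 spacing and 3.34% an ISRE. Of the 66 windows of genes raised with IFNγ and lowered with IL-4, 14 (21.2%) held an ISRE, 6 (9.09%) a GAS match and 4 (6.06%) the STAT6 spacing. The 402 windows of genes raised with IFNγ only held an ISRE in 10.7%, a GAS match in 9.95% and the STAT6 spacing in 7.96%. Of the 52 windows of genes raised with both, 8 (15.4%) held the STAT6 spacing, and of the 62 windows of genes lowered with IFNγ and raised with IL-4 6 (9.68%) did. Over all 245 windows of genes raised with IL-4 the share was 9.8%, while it was 7.06% in the 85 windows of genes raised with IL-4 only, of which 10.6% held a GAS match. In the lowered classes the ISRE share was 3.42% of 438 windows (IFNγ only), 2.94% of 34 (both cytokines) and 8.77% of 57 (IL-4 only). A match is a string of letters and not a bound site.

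Depth and the 2 series of libraries bear on all values. The files held 26.7 M to 63.2 M counts per library in the IFNγ table and 17 M to 30.6 M in the IL-4 table, and the level that 3 counts stand for, below which a gene was taken as not detectable, was 0.0475 to 0.112 and 0.0979 to 0.176 CPM (counts in proportion to library size, scaled to a fixed total). Levels below are CPM on TMM-scaled library sizes, which are not corrected for gene length, so they are compared only between libraries of a gene. The detection levels above are on library totals before that scaling, whose factors ran from 0.771 to 1.27, so they shift somewhat on the scale of the levels. The fold bounds given below use 3 counts on the scaled sizes. Replicates 1–3 and 4–6 of every group, which the labels name by different schemes, held different kinds of RNA: the summed level of 70 replication-dependent histone genes was 43.7 to 181 CPM in replicates 1–3 and 2930 to 14003 CPM in replicates 4–6. Rn7s1 and Rn7s2 made up 134494 to 171671 CPM of replicates 4–6 in the IFNγ table, 53.3 to 317 CPM of those in the IL-4 table, and at most 15.3 CPM elsewhere. Each table's replicate set therefore had its own intercept in the fit, and counts within each set are given beside the pooled ones. In bulk RNA a smaller share of cells that express a gene cannot be told apart from less RNA per cell.

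The cell line's identity was checked against markers. All 7 defining macrophage markers (among them Csf1r, Adgre1 and Lyz2) were tested, with a summed level of 4342 to 8430 CPM over the 24 libraries, and 1 of them, Adgre1, was called with each cytokine. None of 25 markers of other cell types (T, B and NK cells, endothelium, fibroblasts, epithelium, liver, mast cells and others) reached the level for testing, and their summed level was 0.0932 to 1.42 CPM. In PE of IL-4 all 25 were at or under 3 counts in every library, and in the other groups 17 to 24 were.

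More genes differed between PE and PBS cultures with IFNγ than with IL-4, and most of the IFNγ calls were not shared. A gene was called when its change passed an adjusted p of 0.05 (edgeR quasi-likelihood test, Benjamini-Hochberg over all genes tested) and a fold of 1.5. With IFNγ 1131 genes were raised and 1047 lowered, which are 7.1% and 6.57% of the genes tested. With IL-4 477 were raised and 272 lowered, which are 3% and 1.71%. The difference of the 2 changes was itself called for 2524 genes, 1151 higher with IFNγ (7.23%) and 1373 lower (8.62%). The split within IL-4 and within the difference moved with the scaling: with TMM referred to another library, 391 genes were raised and 358 lowered with IL-4, and 1382 differences were higher and 1129 lower with IFNγ. Changes were called under both cytokines for 307 genes, 14.1% of the IFNγ calls and 41% of the IL-4 calls. Of these, 179 turned opposite ways (88 raised with IFNγ and lowered with IL-4, 91 the reverse) and 128 moved the same way (80 raised, 48 lowered). A gene was assigned to a single cytokine when it was called there, was not called with the other, and its difference was called: 1234 genes were of IFNγ only (608 raised, 626 lowered) and 264 of IL-4 only (184 raised, 80 lowered). A further 637 genes were called with IFNγ and 178 with IL-4 without a called difference, and they are assigned to neither class.

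**Figure D1:**
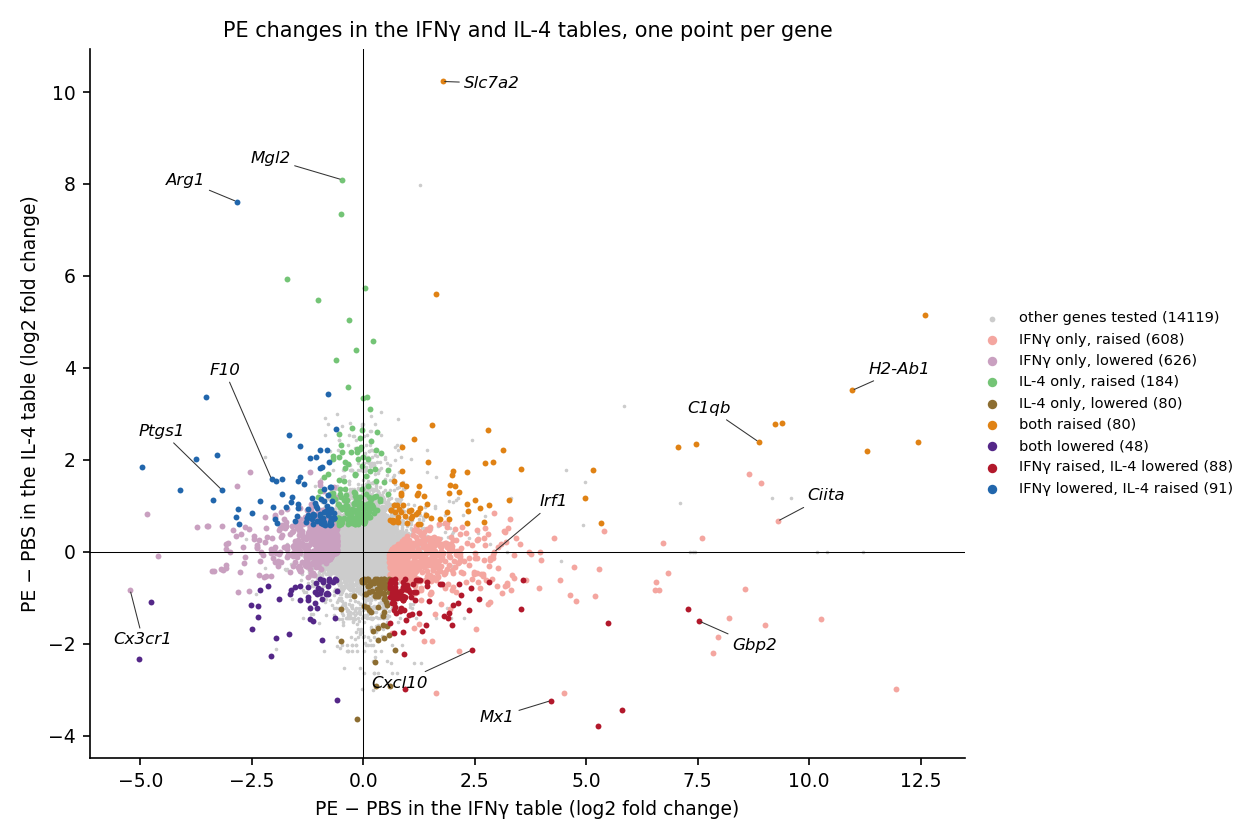
Each point is a tested gene, with the log2 change of PE against PBS with IL-4 plotted against that with IFNγ; colours mark the classes. The 179 opposite genes lie in the upper left and lower right quadrants, the 128 shared genes in the other two, and the genes of a single cytokine along the axes.

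The 88 genes raised with IFNγ and lowered with IL-4 had median log2 changes of 0.97 and −0.98, where the medians of all genes were −0.02 and 0.03. They held 6 of the 19 interferon-induced GTPases, 6 of the 22 genes of the type I interferon response and the chemokine Cxcl10. With TMM referred to the other library this direction held 109 genes and the reverse 75.
Dusp6, the phosphatase that inactivates ERK, led the class. Leading genes of every class had to separate PE from PBS within each replicate set of a table with a call. Whether their groups of 6 overlap is thus partly fixed by that choice. With IFNγ Dusp6 lay between 7.94 and 17.4 CPM in PBS (median 11.4) and between 15.5 and 31 CPM in PE (median 22.2). With IL-4 it lay between 6.55 and 18.8 CPM in PBS (median 10.7) and between 2.34 and 5.83 CPM in PE (median 4.12). The PE libraries of IL-4 were all below PBS, while those of IFNγ overlapped with PBS. Its log2 change was 0.96 ± 0.09 (SE, n = 6 against 6) with IFNγ and −1.49 ± 0.10 with IL-4, a difference of 2.45 ± 0.14 (adjusted p = 1.14e-12, edgeR).
Slc1a4, a transporter of alanine, serine and cysteine, rose from 36.3–71.3 CPM (median 51.0) to 90.2–116 CPM (median 103) with IFNγ. Under IL-4 Slc1a4 went from 28.8–59.3 CPM (median 46.7) to 18.8–33.7 CPM (median 24.7). The IFNγ groups did not overlap and the IL-4 groups did, and the difference was 1.81 ± 0.18 (adjusted p = 3.42e-08). Stk40, a pseudokinase, changed by 0.93 ± 0.11 with IFNγ (medians 45.1 and 91.2 CPM) and by −0.98 ± 0.11 with IL-4 (medians 41.7 and 21.6 CPM). For Neurl3, a ubiquitin ligase, the changes were 1.14 ± 0.23 and −0.87 ± 0.22. Its IFNγ change came mostly from replicates 4–6, where it was 2.07, against 0.36 in replicates 1–3.

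Among interferon-induced genes the opposition ran over a range of levels. Irgm2, an immunity-related GTPase, lay at 9.26 to 31.1 CPM in PBS (median 17.5) and at 54.7 to 108 CPM in PE (median 75.5) with IFNγ. With IL-4 Irgm2 lay at 9.37 to 12.3 CPM in PBS (median 11.8) and at 6.04 to 8.87 CPM in PE (median 7.03). Neither pair of groups overlapped, and the log2 changes were 2.14 ± 0.11 and −0.70 ± 0.12 (adjusted p of the difference 9.61e-13).
Cxcl10, the ligand of CXCR3, went from 0.248–0.987 CPM (median 0.482) to 2.18–3.98 CPM (median 3.29) with IFNγ and from 0.299–2.44 CPM (median 0.866) to 0.072–0.296 CPM (median 0.239) with IL-4. Again the groups of Cxcl10 were apart in both tables, with changes of 2.43 ± 0.31 and −2.14 ± 0.42. With IL-4 the margin was small (0.296 CPM in PE against 0.299 CPM in PBS), and PE lay close to the detection level. Gbp2, a guanylate-binding protein, rose with IFNγ from a median of 0.577 CPM to 113 CPM, a log2 change of 7.52 ± 0.14, and fell with IL-4 from 0.426 to 0.103 CPM (−1.51 ± 0.34), where the IL-4 levels were close to the detection level.
Mx1, an antiviral GTPase, stood at a median of 0.253 CPM in PBS and 4.37 CPM in PE of IFNγ (4.21 ± 0.30). In IL-4, PE of Mx1 was at or under 3 counts in every library against a median of 0.301 CPM in PBS, at least 2.43-fold lower. Rsad2, the antiviral enzyme viperin, changed by 1.89 ± 0.21 and −1.45 ± 0.26. Isg15, the ubiquitin-like modifier, changed by 1.18 ± 0.26 and −0.88 ± 0.29 (adjusted p = 0.033), with overlapping groups in both tables, and it stayed in the class in 17 of the 24 fits that each left out 1 library. Without IL-4 PBS replicate 1, 5 or 6 or IL-4 PE replicate 1, 4, 5 or 6 its IL-4 change lay between −0.70 and −0.88 and was not called (adjusted p 0.0507 to 0.0911). Icosl, the ligand of the costimulatory receptor ICOS, changed by 1.32 and −1.73, and Slc40a1, the iron exporter ferroportin, by 1.40 and −1.60. Maf, a macrophage transcription factor, changed by 2.00 ± 0.46 with IFNγ and by −1.59 ± 0.41 with IL-4. Within the replicate sets the IFNγ change of Maf was 0.30 (replicates 1–3) and 3.52 (replicates 4–6).

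The 91 genes lowered with IFNγ and raised with IL-4 had median changes of −1.07 and 0.93. Egr2 and Irf4 of the IL-4 signaling list and 3 genes of the osteoclast list were among them.
Serpinb9b, an intracellular protease inhibitor, lay at 10.7–16.6 CPM in PBS (median 12.8) and 3.91–5.71 CPM in PE (median 4.94) with IFNγ. With IL-4 Serpinb9b lay at 2.60–6.56 CPM in PBS (median 4.53) and 9.15–22.2 CPM in PE (median 12.5). The groups were apart in both tables, which the choice of leading genes partly fixed. The changes were −1.43 ± 0.13 and 1.62 ± 0.13 (difference −3.05 ± 0.18, adjusted p = 3.18e-12). Cldn11, a claudin of tight junctions, fell from 18.9–64.0 CPM (median 40.4) to 6.79–17 CPM (median 11.8) with IFNγ and rose from 62.0–81.1 CPM (median 70.5) to 119–228 CPM (median 179) with IL-4, again without overlap.
F10, coagulation factor X, changed by −2.06 ± 0.22 (medians 12.9 and 2.64 CPM) and by 1.58 ± 0.19 (medians 10.02 and 31 CPM). The size of its opposition differed between the replicate sets: the difference was −4.49 in replicates 1–3 and −2.62 in replicates 4–6 (adjusted p = 0.0417 for the set term). Ephx1, the microsomal epoxide hydrolase, changed by −1.24 ± 0.13 and 0.92 ± 0.13 with no overlap in either table.
Ptgs1, cyclooxygenase 1, held the clearest levels among the enzymes of the alternative activation list. It lay at 2.96–5.63 CPM in PBS (median 3.78) and 0.092–0.696 CPM in PE (median 0.469) of IFNγ, and at 3.66–8.91 CPM in PBS (median 7.28) and 15.4–20.6 CPM in PE (median 16.8) of IL-4. Both separations of Ptgs1 were complete, with changes of −3.17 ± 0.23 and 1.34 ± 0.16.
Egr2 and Irf4, transcription factors that IL-4 is known to raise, changed by −1.20 ± 0.24 and 2.04 ± 0.21 (Egr2) and by −0.73 ± 0.21 and 1.40 ± 0.20 (Irf4). Their PE libraries of IL-4 were all above PBS, whereas those of IFNγ overlapped with PBS. The osteoclast protease Ctsk, cathepsin K, fell from a median of 62.3 to 8.27 CPM with IFNγ (−2.85 ± 0.18, no overlap) and rose from 40.3 to 64.2 CPM with IL-4 (0.75 ± 0.16, overlapping). Atp6v0d2, a proton pump subunit of osteoclasts, went from 177 to 64.7 CPM and from 67.0 to 121 CPM in median.
Arg1, arginase 1, had no PBS library of IL-4 over 3 counts and lay at 3.44 to 9.89 CPM in PE (median 4.81), at least 47.7-fold higher. With IFNγ Arg1 lay at a median of 0.0635 CPM in PBS and was at or under 3 counts in all PE libraries (adjusted p = 0.0367). These levels are too low to bound the fold of that fall. That fall rested on few reads: the class of Arg1 held in 16 of 24 fits that each left out 1 library, and without IFNγ PBS replicate 1, 3 or 4 or IFNγ PE replicate 1, 2, 4, 5 or 6 the adjusted p was 0.0596 to 0.0777.

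**Figure D2:**
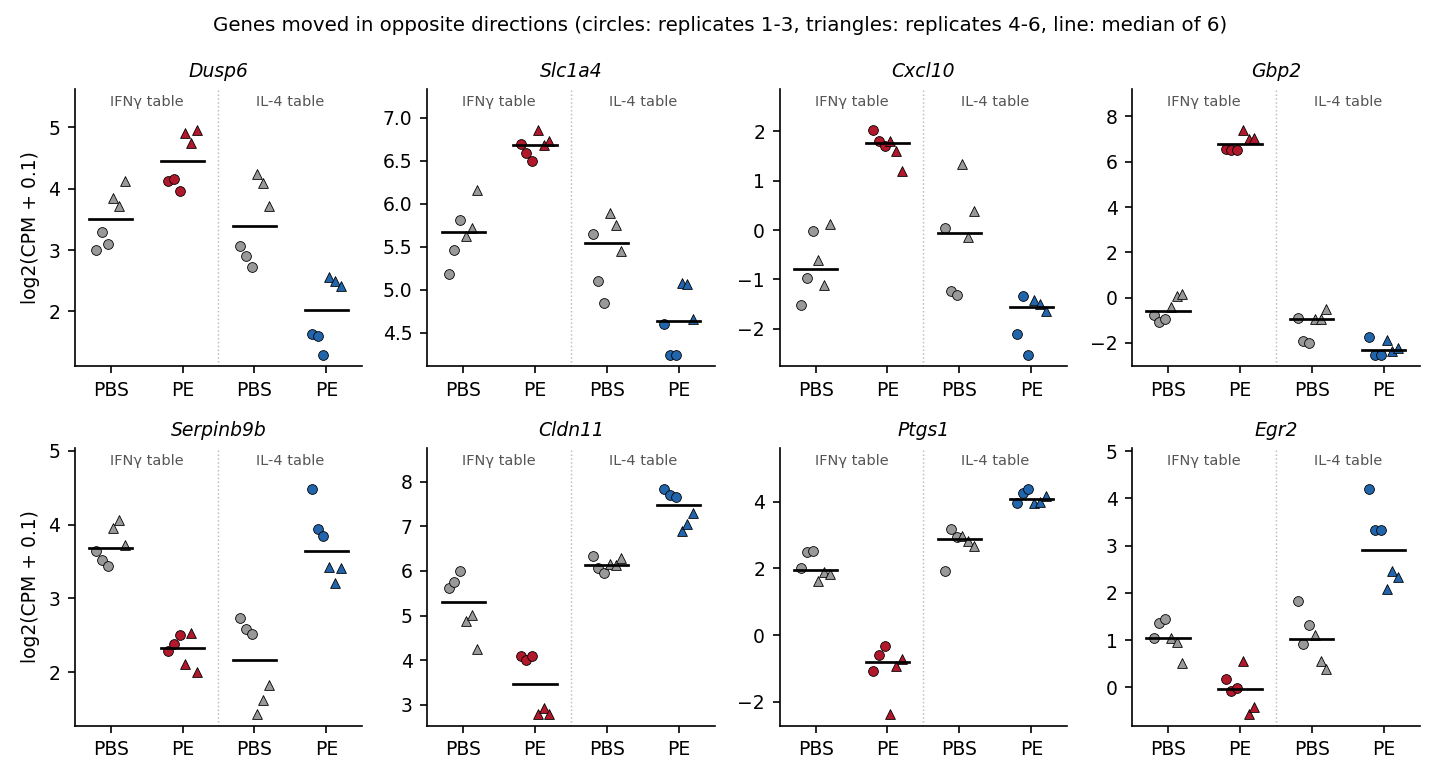
Level of the opposite genes Dusp6, Slc1a4, Cxcl10, Gbp2, Serpinb9b, Cldn11, Ptgs1 and Egr2 in every library, as log2(CPM + 0.1) with an axis for each gene. Circles are replicates 1–3, triangles replicates 4–6 and lines medians of 6. Cxcl10, Serpinb9b, Cldn11 and Ptgs1 separate PBS from PE in both tables, in opposite directions, Cxcl10 with IL-4 by a small margin. For Serpinb9b and Cldn11 the choice of leading genes partly fixed the separation.

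The 80 genes raised with both cytokines had median changes of 1.44 with IFNγ and 1.12 with IL-4. Over the 128 shared genes the difference was called for 46 and not for 82. Complement, myeloid surface receptors and MHC class II genes were found here.
Cd274, the checkpoint ligand PD-L1, lay at 14.2–29.2 CPM in PBS (median 18.7) and 71.8–92.8 CPM in PE (median 78.5) with IFNγ. With IL-4 Cd274 lay at 8.53–20.7 CPM in PBS (median 10.8) and 26.4–43.0 CPM in PE (median 31.8). PE was above PBS throughout, and the IFNγ rise of 2.06 ± 0.15 exceeded the IL-4 rise of 1.42 ± 0.15 by 0.64 ± 0.20 (adjusted p = 0.0196). In replicates 4–6 that excess was 0.09, against 1.16 in replicates 1–3.
Itgax, the integrin CD11c, rose more with IL-4. It went from 4.17–6.37 CPM (median 5.30) to 9.41–24.2 CPM (median 15.3) with IFNγ and from 2.91–7.16 CPM (median 3.75) to 12.6–76.8 CPM (median 21.5) with IL-4, with no overlap. The changes of Itgax were 1.53 ± 0.25 and 2.75 ± 0.26 (difference −1.22 ± 0.35, adjusted p = 0.0101), and −2.21 of difference was seen in replicates 1–3 against −0.13 in replicates 4–6. C3, the central complement component, rose from a median of 12.3 to 139 CPM with IFNγ (3.53 ± 0.25) and from 6.65 to 23.4 CPM with IL-4 (1.80 ± 0.25). Clec7a, the β-glucan receptor Dectin-1, rose by 2.33 ± 0.21 and 1.74 ± 0.21, and its difference of 0.59 ± 0.29 was not called (adjusted p = 0.129).
C1qb, a chain of complement C1q, lay at 0 to 0.17 CPM in PBS and 16 to 59 CPM in PE (median 31.1) with IFNγ, and at 0.0466 to 0.453 CPM in PBS and 0.444 to 2.36 CPM in PE (median 1.01) with IL-4. The IL-4 groups of C1qb overlapped by a small margin. Socs1, the feedback inhibitor of both pathways, rose by 2.01 ± 0.23 (medians 1.06 and 3.91 CPM) and 1.76 ± 0.24 (medians 1.01 and 3.49 CPM), and its difference was 0.25 ± 0.34 (adjusted p = 0.629). Ass1, argininosuccinate synthase of the arginine cycle, rose by 2.61 ± 0.12 with IFNγ and 0.95 ± 0.14 with IL-4.
Slc7a2, a transporter of arginine, ran the other way in size. All 6 PBS libraries of IL-4 held no count of Slc7a2 and PE lay at 2.59 to 8.78 CPM (median 5.51), at least 43.6-fold higher, whereas with IFNγ the medians were 0.0587 and 0.234 CPM (1.78 ± 0.56, adjusted p = 0.0173). Without IFNγ PBS replicate 4 the IFNγ change of Slc7a2 was 1.58 with an adjusted p of 0.06.

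The 48 genes lowered with both had median changes of −1.08 and −0.91. All 48 kept both signs in each replicate set, which the choice of the class over both sets together partly fixes.
Fosl2, an AP-1 transcription factor, lay at 39.9–52.8 CPM in PBS (median 46.3) and 18.0–21.7 CPM in PE (median 19.5) with IFNγ. With IL-4 Fosl2 lay at 33.6–56.5 CPM in PBS (median 44.0) and 19.2–23.7 CPM in PE (median 21.2). The groups were apart in both tables, and the changes of −1.24 ± 0.10 and −1.05 ± 0.10 differed by −0.19 ± 0.14 (adjusted p = 0.321). Marcksl1, an actin-binding substrate of protein kinase C, fell by 1.09 ± 0.09 and 1.12 ± 0.09 on the log2 scale (difference 0.03 ± 0.13, adjusted p = 0.884), from medians of 52.8 and 55.9 CPM to 25.0 and 25.8 CPM. Alox5, the 5-lipoxygenase of leukotriene synthesis, fell more with IFNγ (−1.65 ± 0.13) than with IL-4 (−0.91 ± 0.13, adjusted p of the difference 0.00299). Myo1d, an unconventional myosin, changed by −0.97 ± 0.12 and −0.90 ± 0.12. Cd80, a costimulatory ligand, changed by −0.95 and −0.83. Its partner Cd86 was of the opposite class, with changes of 3.59 with IFNγ and −0.62 with IL-4. The latter call was lost in 3 of 24 fits, without IL-4 PBS replicate 1 (−0.42, adjusted p = 0.0926), IL-4 PE replicate 2 (−0.49, adjusted p = 0.085) or IL-4 PE replicate 3 (−0.52, adjusted p = 0.0802).

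**Figure D3:**
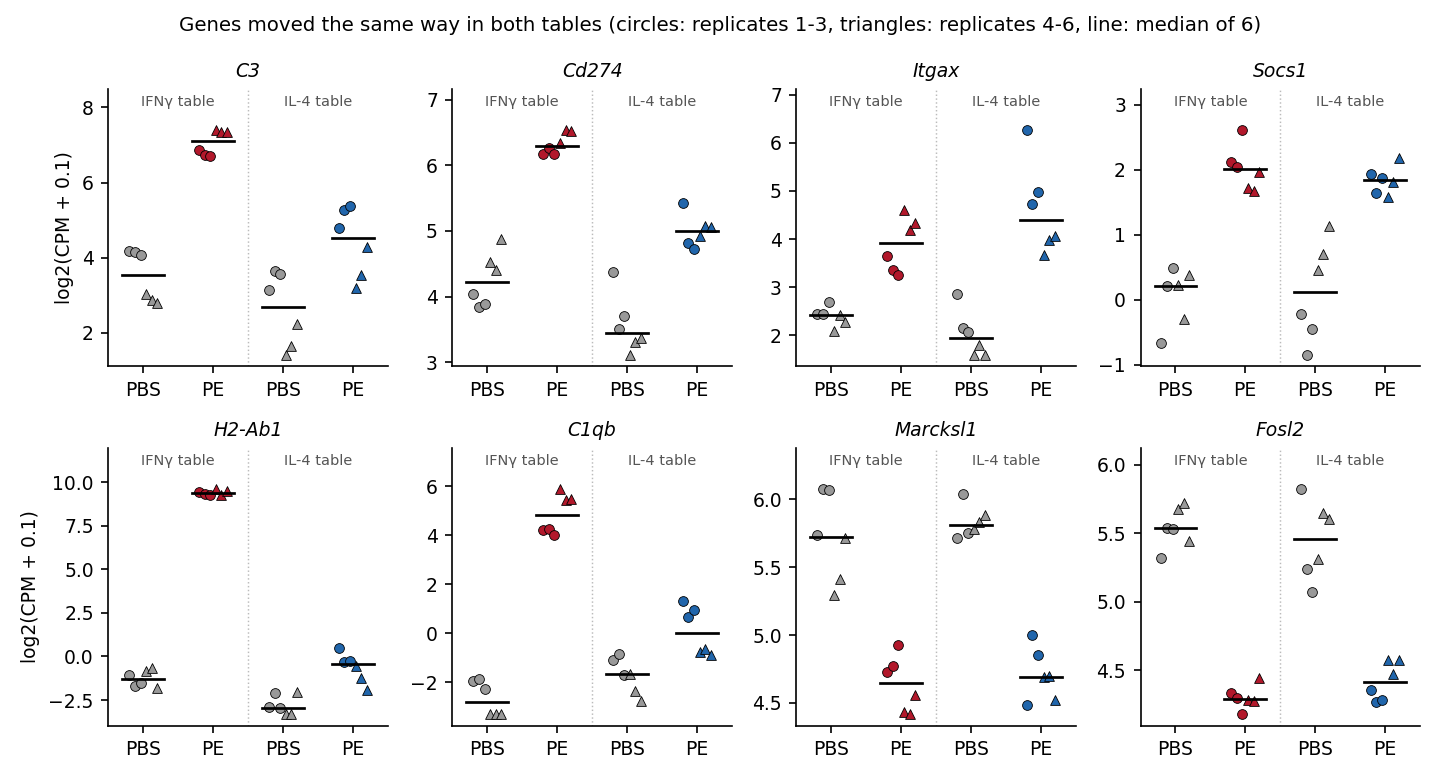
Level of the shared genes C3, Cd274, Itgax, Socs1, H2-Ab1, C1qb, Marcksl1 and Fosl2 in every library, as log2(CPM + 0.1) with an axis for each gene. Circles are replicates 1–3, triangles replicates 4–6 and lines medians of 6. Fosl2 and Marcksl1 fell in both tables, Fosl2 without overlap, and Itgax and Cd274 rose without overlap. These are leading genes, whose choice partly fixed their separation.

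The 608 genes raised with IFNγ only had a median change of 1.15 with IFNγ and −0.15 with IL-4. For 16 of them both IL-4 groups were at or under 3 counts in every library. The leading genes were interferon-induced GTPases and the surface antigen Ly6a.
Ly6a, the antigen Sca-1, lay at 0 to 0.124 CPM in PBS and 119 to 304 CPM in PE (median 202) with IFNγ, a log2 change of 11.96 ± 0.22. With IL-4 Ly6a was at 0 in all PE libraries and at most at 0.13 CPM in PBS. Iigp1 lay at 0 to 0.224 CPM in PBS and 45.0 to 178 CPM in PE (median 97.4) with IFNγ and at most at 0.106 CPM with IL-4. Both genes lost the call of the difference when the SE libraries entered the fit.
Tgtp2, a GTPase like Iigp1, rose to 81.9–118 CPM (median 102), a change of 9.02 ± 0.23. Gbp5, which is known to promote inflammasome assembly, rose to 8.95–21.4 CPM (median 13.6), a change of 7.84 ± 0.31. In IL-4 both stood near the detection level: without IL-4 PE replicate 5 the IL-4 change of Tgtp2 was called (−3.20, adjusted p = 0.0322), as was that of Gbp5 without IL-4 PE replicate 3 (−4.26, adjusted p = 0.0274), and both were then opposite genes.
Irf1 and Nos2 moved at well-measured levels. Irf1 lay at 15.3–18.0 CPM in PBS (median 16.3) and 114–136 CPM in PE (median 128) with IFNγ, and at 17.4–21.2 CPM and 15.0–23.3 CPM with IL-4, where both medians were 18.7 CPM. The IFNγ groups of Irf1 were far apart and the IL-4 groups overlapped, with changes of 2.93 ± 0.08 and −0.01 ± 0.08. Nos2, the inducible nitric oxide synthase, lay at 5.89–29.2 CPM in PBS (median 14.4) and 83.4–203 CPM in PE (median 134) with IFNγ (3.03 ± 0.35). With IL-4 the medians of Nos2 were 4.52 and 4.59 CPM (0.11 ± 0.40), and the difference of 2.92 ± 0.53 was called (adjusted p = 0.000143).

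The 626 genes lowered with IFNγ only had median changes of −0.89 and 0.14.
Igfbp4, a binding protein of insulin-like growth factors, lay at 14.8–50.2 CPM in PBS (median 36.7) and 1.79–9.18 CPM in PE (median 5.85) with IFNγ. With IL-4 Igfbp4 lay at 31.1–63.4 CPM (median 41.0) and 28.3–72.5 CPM (median 45.7). The former groups were apart and the latter overlapped fully, with changes of −2.69 ± 0.16 and 0.10 ± 0.15 (difference −2.80 ± 0.22, adjusted p = 4.64e-10). Tnfrsf9, the costimulatory receptor 4-1BB, fell from a median of 11.6 to 1.63 CPM with IFNγ (−2.99 ± 0.44) and had a change of 0.00 ± 0.43 with IL-4. Selenbp1, a selenium-binding protein, changed by −2.92 ± 0.54 with IFNγ, with PBS libraries spread from 2.61 to 42.8 CPM. In replicates 4–6 alone it was not called (−2.16, adjusted p = 0.0595).
Cx3cr1, the fractalkine receptor, fell from 0.747–32.5 CPM (median 12.6) to 0.142–0.623 CPM (median 0.416) with IFNγ, a change of −5.23 ± 0.52. Its IL-4 change of −0.84 ± 0.31 missed the threshold (adjusted p = 0.0687) and passed it without IFNγ PBS replicate 5 (−0.90, adjusted p = 0.0415), IFNγ PBS replicate 6 (−0.90, adjusted p = 0.00606) or IL-4 PBS replicate 6 (−0.98, adjusted p = 0.0305), so that Cx3cr1 was then lowered with both. Arg2, the mitochondrial arginase, changed by −3.51 with IFNγ and 0.55 with IL-4, and Mmp9, a matrix metalloproteinase, by −2.55 and 0.50. Without IL-4 PBS replicate 1 the IL-4 change of Mmp9 was 1.01 and called (adjusted p = 0.00566).

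The 184 genes raised with IL-4 only had median changes of −0.18 with IFNγ and 1.01 with IL-4, and 101 of them are protein-coding. The leading genes were a C-type lectin, a metalloproteinase, a lipase and an amino acid oxidase.
Mgl2, a macrophage galactose-type lectin, lay at 0 to 0.299 CPM in PBS and 36.2 to 67.3 CPM in PE (median 48.2) with IL-4. With IFNγ Mgl2 lay at 0.719 to 1.76 CPM (median 1.20) in PBS and 0.0357 to 2.15 CPM (median 0.808) in PE. Its IL-4 groups were far apart (8.09 ± 0.29) and its IFNγ groups overlapped (−0.48 ± 0.28). Mrc1, the mannose receptor CD206, lay at 1.12–1.68 CPM in PBS (median 1.49) and 28.3–45.9 CPM in PE (median 32.6) with IL-4 (4.58 ± 0.26), and at medians of 1.42 and 1.80 CPM with IFNγ (0.22 ± 0.30). Without IFNγ PBS replicate 1 the latter change of Mrc1 was 0.62 and called (adjusted p = 0.0394).
Lipn, a lipase, rose to 15.6–18.3 CPM from 0.333–0.924 CPM with IL-4 (5.04 ± 0.22). Il4i1, a secreted amino acid oxidase named for its induction by IL-4, rose to 10.8–14.9 CPM from 0.329–1.27 CPM (4.40 ± 0.28), and its difference was −6.59 in replicates 1–3 and −3.12 in replicates 4–6 (adjusted p = 0.0186 for the set term). Mmp12, the macrophage elastase, rose to 16.2–65.6 CPM from 0.149–1.19 CPM (5.49 ± 0.40). Its IFNγ change of −1.01 ± 0.45 was not called (adjusted p = 0.084) but was without IL-4 PE replicate 1 (−1.03, adjusted p = 0.0152), where Mmp12 became an opposite gene. Within a replicate set the IFNγ change was called and the class turned opposite for Lipn (−1.46) and Il4i1 (−1.19) in replicates 1–3 and for Mgl2 (−2.21) in replicates 4–6.
Cish, a feedback inhibitor of STAT signaling, had at most 3 counts in each PBS library of IL-4 and lay at 4.55 to 10.9 CPM in PE (median 5.92), at least 54.8-fold higher. With IFNγ the medians of Cish were 0.121 and 0.0893 CPM, close to the detection level, where a change could be missed. Clec10a, the lectin MGL1, rose from a median of 26.7 to 116 CPM (2.17 ± 0.15) with IL-4, and Flt1, the VEGF receptor 1, from 1.80 to 11 CPM (2.61 ± 0.17). Pdcd1lg2, the checkpoint ligand PD-L2, rose from a median of 0.22 to 0.955 CPM with IL-4 (2.06 ± 0.36). With IFNγ Pdcd1lg2 lay at 0.0842 and 0.111 CPM, likewise close to the detection level. Its difference of −2.08 ± 0.68 (adjusted p = 0.0226) was not called without IFNγ PBS replicate 2 (adjusted p = 0.0623) or IFNγ PBS replicate 5 (adjusted p = 0.065).

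The 80 genes lowered with IL-4 only had median changes of 0.33 with IFNγ and −0.81 with IL-4. Inflammatory mediators and a cytokine receptor chain led them.
Il17ra, a chain of the IL-17 receptor, lay at 40.6–62.0 CPM in PBS (median 47.6) and 13.8–17.5 CPM in PE (median 16.5) with IL-4. With IFNγ Il17ra lay at 30.4–39.7 CPM in PBS (median 33.2) and 41.6–51.6 CPM in PE (median 46.2). The groups were apart in both tables and in opposite directions, but the IFNγ change of 0.45 ± 0.09 (adjusted p = 0.000267) was a 1.37-fold rise, under the fold of 1.5, so Il17ra is not among the 179. Tnf, the inflammatory cytokine, went from a median of 47.7 to 24.2 CPM with IL-4 (−1.02 ± 0.16) and from 43.1 to 57.9 CPM with IFNγ (0.49 ± 0.15), with overlap in both.
Cxcl2, a neutrophil chemokine, changed by −1.61 ± 0.32 with IL-4 and 0.52 ± 0.31 with IFNγ, where PBS replicate 6 was at 54.8 CPM against a median of 17.9. Without that library the IFNγ change of Cxcl2 was 0.90 and called (adjusted p = 0.00433), and it became an opposite gene. Siglec1, the sialoadhesin CD169, changed by −1.16 ± 0.18 and 0.53 ± 0.17, and in 5 of 24 fits it counted as an opposite gene: without IFNγ PBS replicate 2, 3 or 6 or IFNγ PE replicate 2 or 3. The IFNγ change of Siglec1 was 0.59 to 0.65 in those fits. Within a replicate set the IFNγ change was called and the class turned opposite for Tnf (0.84) and Cxcl2 (1.44) in replicates 1–3 and for Siglec1 (1.01) in replicates 4–6.

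**Figure D4:**
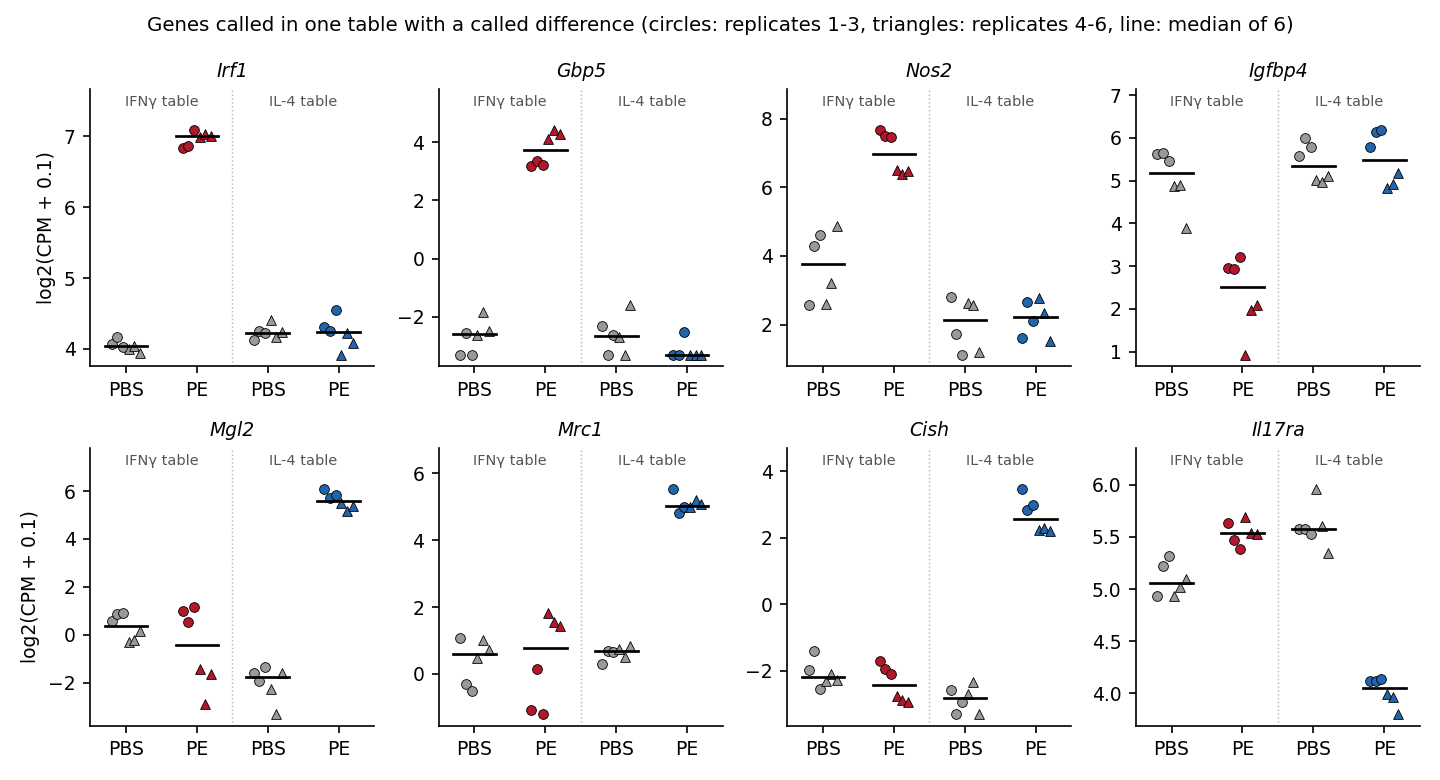
Level of Irf1, Gbp5, Nos2, Igfbp4, Mgl2, Mrc1, Cish and Il17ra in every library, as log2(CPM + 0.1) with an axis for each gene. Circles are replicates 1–3, triangles replicates 4–6 and lines medians of 6. Irf1, Gbp5 and Nos2 rise and Igfbp4 falls with IFNγ. Mgl2, Mrc1 and Cish rise and Il17ra falls with IL-4. The IL-4 levels of Gbp5 stay near the detection level.

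Gene lists of the 2 pathways and of macrophage functions were counted next, as descriptions beside the shares of all genes given above. Signaling genes divided between the classes: of 16 genes of IFNγ signaling 7 were raised with IFNγ (among them Stat2, Irf1, Irf8, Socs1, Socs3 and Batf2), and 1 was raised (Socs1) and 1 lowered (Irf7) with IL-4. Of 15 genes of IL-4 signaling 4 were raised and 3 lowered with IFNγ and 3 were raised and 2 lowered with IL-4, with Irf4, Egr2 and the histone demethylase Kdm6b among the opposite genes. Kdm6b changed by 0.60 with IFNγ and −0.69 with IL-4 and kept its class in 20 of 24 fits that left out 1 library. Its IFNγ change was 0.49 to 0.58, under the fold of 1.5, without IFNγ PBS replicate 1 or 4 or IFNγ PE replicate 1 or 6.
All 19 interferon-induced GTPases tested were raised with IFNγ (median change 5.21), and 6 were lowered with IL-4 (median −0.70): Gbp2, Gbp2b, Gbp3, Gbp7, Irgm2 and Ifi47. With IL-4, 7 of the 19 never exceeded 3 counts in PBS and 8 never did in PE, so the median change rests partly on genes near the detection level. Gbp2b kept its class in 18 of 24 fits that left out 1 library and lost the IL-4 call without IL-4 PBS replicate 3 or 6 or IL-4 PE replicate 2, 3, 5 or 6 (−1.02 to −1.21, adjusted p 0.0505 to 0.0975). Ifi47 kept it in 22 and fell short of the fold of 1.5 without IL-4 PE replicate 1 (−0.58) or 5 (−0.56). Several of these genes have near-identical neighbours, and only uniquely aligned reads were counted, so the split between Gbp2 and Gbp2b or Tgtp1 and Tgtp2 is uncertain. Of 22 genes of the type I interferon response 8 were raised and 3 lowered with IFNγ, while none were raised and 12 were lowered with IL-4. Of these, Isg15, Ifit1, Ifit3, Oasl2, Mx1 and Rsad2 turned opposite ways, and Oas2 was lowered with both (−1.43 and −0.75). Ifit3 kept its class in 16 of 24 fits that left out 1 library, and its IL-4 change of −0.89 to −1.14 was not called (adjusted p 0.054 to 0.124) without IL-4 PBS replicate 1, 4 or 5 or IL-4 PE replicate 2, 3, 4, 5 or 6.

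Most genes of antigen presentation were raised with IFNγ and some of class II with IL-4. All 18 genes of MHC class I and the immunoproteasome were raised with IFNγ (median 1.79) and none was called with IL-4 (median 0.01), and the difference was called for all 18. Of 15 MHC class II genes 11 were raised with IFNγ (median 4.44) and 6 with IL-4 (median 0.61, or 0.64 with genes near the detection level at their bounds).
H2-Ab1, a class II β chain, lay at 0.187–0.538 CPM in PBS and 612–772 CPM in PE (median 658) with IFNγ, and at 0 to 0.14 CPM in PBS and 0.167–1.31 CPM in PE (median 0.643) with IL-4. PE of H2-Ab1 was above PBS in both tables, although the IL-4 level stayed near 1 CPM (10.97 ± 0.20 and 3.51 ± 0.44). Ciita, the class II transactivator, lay at a median of 19.2 CPM in PE of IFNγ against at most 3 counts in each PBS library, at least 221-fold higher. With IL-4 Ciita had overlapping groups (medians 0.177 and 0.236 CPM, 0.66 ± 0.40). Cd74, the invariant chain, rose by 2.32 with IFNγ and by 0.61 with IL-4, and the latter stayed past the fold of 1.5 in 14 of 24 fits. It was 0.51 to 0.58, with adjusted p under the threshold, without IFNγ PBS replicate 4, 5 or 6, IFNγ PE replicate 5 or 6, IL-4 PBS replicate 3 or 4 or IL-4 PE replicate 2, 3 or 6.

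Secreted and surface mediators were mixed. Of 14 chemokine ligands 10 were raised and 1 lowered with IFNγ, and 3 were raised (Ccl6, Ccl7 and Ccl12, all shared) and 2 lowered with IL-4. Of 11 inflammatory cytokines 4 were raised and 1 lowered with IFNγ, and none raised and 3 lowered with IL-4. Csf1, the macrophage growth factor, changed by 2.49 and −0.48, and Il27 by 2.56 and −0.13. Among 15 complement genes 10 were raised with IFNγ (median 2.50), and 5 were raised (C1qa, C1qb, C1qc, C3 and C3ar1) and 1 lowered (Cfb) with IL-4. Of 11 genes of the costimulatory and checkpoint ligand list 5 were raised and 1 lowered with IFNγ and 2 were raised and 5 lowered with IL-4. Those raised with IFNγ include Cd40 and Havcr2, which are receptors and not ligands. The 14 Toll-like receptors and adaptors had 3 raised with IFNγ and 1 raised and 1 lowered with IL-4. The 7 genes of the Fcγ receptor list include the signaling genes Syk and Inpp5d. Of these 7, 2 were raised (Fcgr1 and Fcgr4) and 1 lowered (Syk) with IFNγ, and 1 was lowered (Fcgr1) with IL-4. Of 21 NF-κB factors and inhibitors 3 were raised and 3 lowered with IFNγ and 2 were lowered with IL-4.

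The effectors of alternative activation rose mainly with IL-4. Of 31 listed genes 18 were tested, of which 12 were raised and none lowered with IL-4 (median 1.90), and 5 were raised and 3 lowered with IFNγ (median 0.23). Genes such as Chil3, Retnla and Fn1 did not reach the level for testing. The list of 10 arginine genes had 3 raised and 2 lowered with IFNγ and 3 raised with IL-4: Nos2 rose and Arg2 fell with IFNγ only, Arg1 turned opposite ways, and Ass1 and Slc7a2 were shared.
Of 21 tested genes of the osteoclast list 1 was raised and 13 were lowered with IFNγ (median −0.81), while 3 were raised and 3 lowered with IL-4 (median −0.05). The list includes Igfbp4 and Spink5, both lowered with IFNγ only, and was chosen with earlier results of these data known. Its IFNγ count and median may partly follow from that choice. Ctsk, Atp6v0d2 and the integrin Itgb3 turned opposite ways and the phosphatase Acp5 (−2.32 and −0.83) and receptor Oscar (−2.07 and −2.27) were lowered with both. Itgb3 changed by −1.61 and 1.19 and kept its class in 19 of 24 fits. Without IL-4 PBS replicate 2, 3 or 4 or IL-4 PE replicate 1 or 5 its IL-4 change was 1.01 to 1.11 with adjusted p of 0.0534 to 0.0741. Acp5 and Oscar each lost the IL-4 call in 1 fit, without IL-4 PBS replicate 1, where their IL-4 changes were −0.48 (adjusted p = 0.0854) and −1.41 (adjusted p = 0.0723).
Of 23 cholesterol synthesis genes 8 were lowered with IFNγ (median −0.51) and none was called with IL-4 (median 0.03), where 10 had a called difference. Sqle, squalene epoxidase, changed by −0.77 and −0.06, and Hmgcs1, which makes HMG-CoA, by −0.70 and 0.10. Of 12 fatty acid genes 3 were lowered with IFNγ and 1 with IL-4, and of 11 cholesterol efflux genes none was called with IFNγ and 1 was lowered with IL-4.
Calls of the remaining lists were mostly with IFNγ, as were those over all genes tested, so this is not particular to these lists. Over all genes 7.1% were raised and 6.57% lowered with IFNγ, and 3% and 1.71% with IL-4. Of 14 cell death genes 7 were raised with IFNγ and 1 was lowered with IL-4 (Nlrp3, with changes of 0.68 and −1.27). The 10 iron genes had 4 raised and 2 lowered with IFNγ and 1 raised and 1 lowered with IL-4, with Tfrc, the transferrin receptor, at −1.41 and 0.45. Of 14 NRF2 targets 4 were raised with IFNγ and 1 was lowered with IL-4. The 21 genes of glycolysis and itaconate had 2 raised and 2 lowered with IFNγ and no calls with IL-4, with Acod1, which makes itaconate, at 2.07 and −0.05 and Ldha, lactate dehydrogenase A, at −0.86 and 0.38. Of 32 genes of DNA replication and mitosis 5 were raised and 4 lowered with IFNγ, and of 13 cell cycle inhibitors and growth genes 1 was raised (the cyclin Ccnd2, 2.76) and 1 lowered. Neither list had a call with IL-4, and of 6 NADPH oxidase subunits 1, Cybb (1.30), was raised with IFNγ. Of 15 genes of macrophage identity 7 were raised and 1 lowered with IFNγ and 3 were raised and 2 lowered with IL-4.

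**Figure D5:**
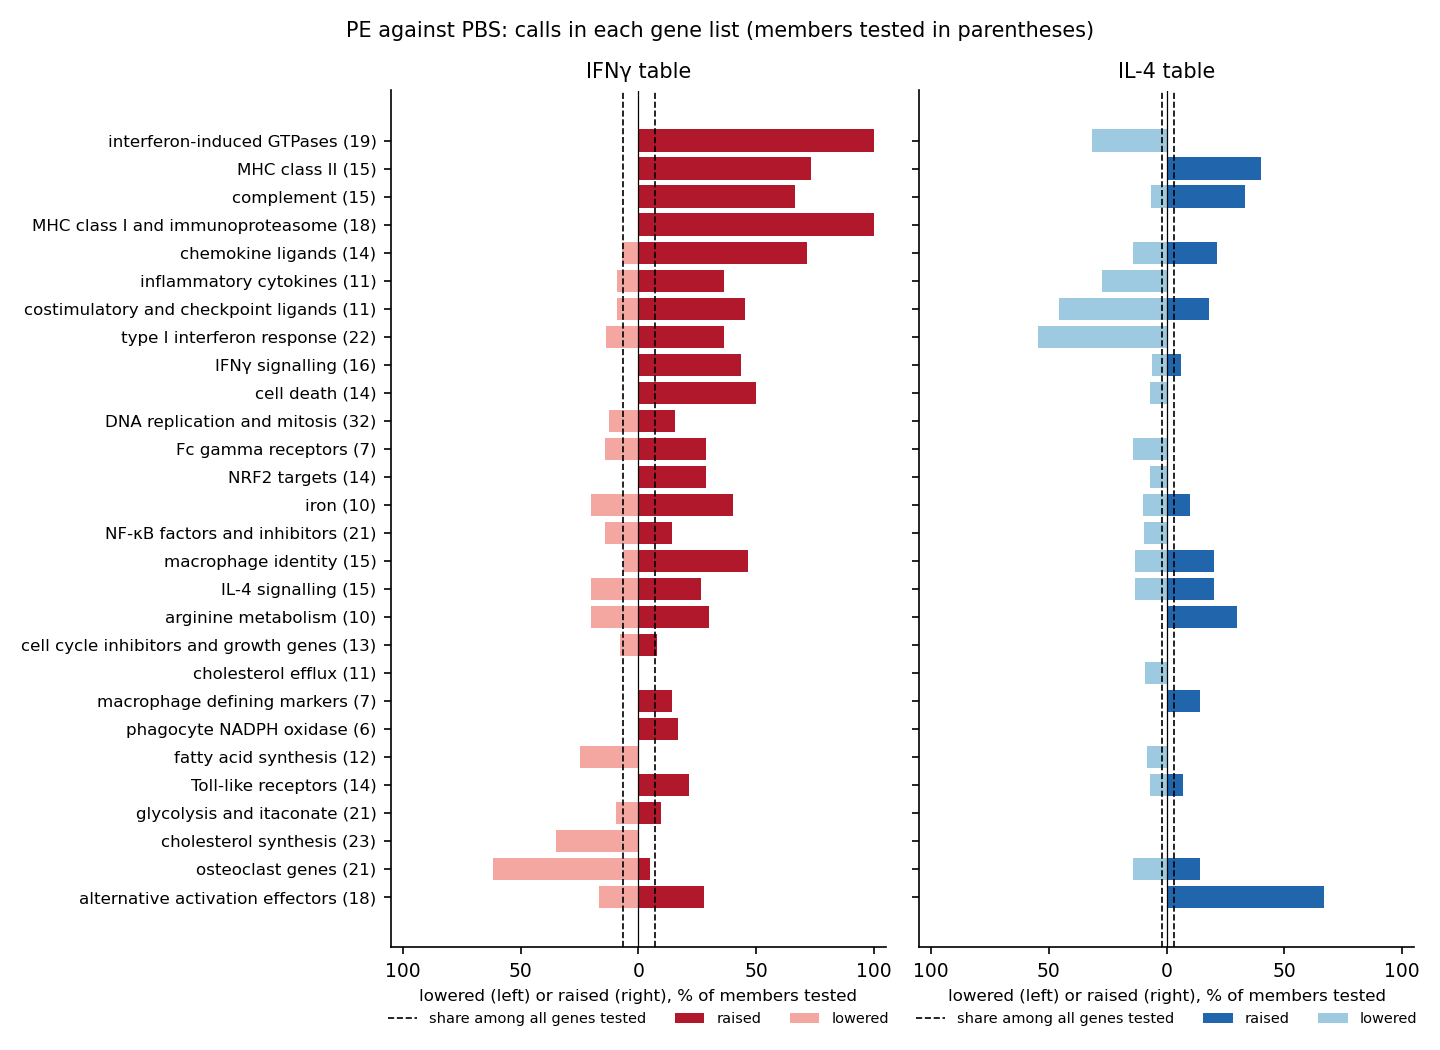
Percentage of the tested members of each gene list that were called raised (right) or lowered (left) in PE against PBS, for each table. Dashed lines mark the share among all genes tested. All 18 genes of MHC class I and the immunoproteasome and all 19 GTPases were raised with IFNγ. With IL-4 no gene of either list was raised and 6 of the GTPases were lowered.

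The classes were recounted within each set of replicates, since the sets held different kinds of RNA. In replicates 1–3 2785 genes were called with IFNγ, 735 with IL-4 and 2413 for the difference, with 158 opposite and 160 shared genes. In replicates 4–6 the numbers were 1648, 733 and 2159, with 112 opposite and 81 shared genes. The classes were chosen by calls over both sets together, so agreement of signs within the sets is partly fixed by that choice. It is no independent replication. Of the 88 genes raised with IFNγ and lowered with IL-4, 87 had both signs in each set. In each set on its own, where 3 libraries stood against 3, 23 were called in the class. The reverse class had 88 of 91 and 22. Of the genes raised with both, 77 of 80 kept both signs and 28 were called in each set. Signs held for 606 of 608 and 625 of 626 genes of IFNγ only, and for 171 of 184 and 79 of 80 genes of IL-4 only. The difference of the changes itself differed between the sets for 40 genes.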

How the data were processed

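RNA of 24 PBS and PE cultures was sequenced by the study, per its methods with a stranded mRNA kit and single-end reads, although replicates 4–6 held histone and, with IFNγ, Rn7s RNA at levels that replicates 1–3 did not. The deposited values are raw counts per gene: per the study's methods, the authors counted uniquely aligned reads with featureCounts on Gencode M12, while their aligner and strand setting are not given in the sources used here, so antisense and overlapping genes are uncertain. The submitters' processing notes name build GRCm38.p5, DESeq2 1.16.1 and R 3.4.1. 26 gene names had been turned into dates and were left as they are.

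Counts of both tables were fitted together in edgeR 4.0.16 (R 4.3.3) with TMM scaling, its expression filter over the 4 groups, an intercept for each table and replicate set, and a PE change for each table (18 residual degrees of freedom, quasi-likelihood test). Calls needed a Benjamini-Hochberg adjusted p under 0.05 and a fold over 1.5, the study's thresholds. The scripts were tested on simulated data. The study describes 2 independent experiments, and p-values measure the spread between these cultures. The level of 3 counts (upper 95% limit of a count of 0) covers counting error only. DESeq2 1.42.0, other scalings, filters, library sets and a replicate block were the alternatives, of which protein-coding genes only and another TMM reference were added after the data were seen.

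The leading genes were up to 4 for each class, by the smaller change where both were called and otherwise by the difference, with at least 10 CPM in PBS or PE of each table with a call and no overlap within a replicate set. Their separation of PBS from PE is partly fixed by this rule. Members of the lists were named besides. The classes, members and lists were chosen with earlier results of these data known. Gene symbols were matched to GENCODE M21 (95.4% of 49568) and promoters to RefSeq, where Arg1 had no entry.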

Additional observations from a re-analysis of the deposited data

Results flagged for a closer look

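The change of PE against PBS cultures, in which peptide and cytokine cannot be told apart, differed between IFNγ and IL-4 for 2524 of the genes tested, by the test of the difference itself, and that difference in turn differed between replicates 1–3 and replicates 4–6 for 40 genes. Among the leading genes these included F10, where the difference moved by 1.87 on the log2 scale from the former set to the latter, and Il4i1, where it moved by 3.47. Both kept their direction in each set.

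In 16 of 127 groups of 6 libraries among the leading genes a library stood apart from the other 5 by Dixon's rule. That rule marks about 1 in 20 groups of independent, normally distributed values. These groups mix the replicate sets and share libraries, so the rate need not hold here and no excess over it was shown. IL-4 PBS replicate 1 was the highest of its group for Ephx1 (26.4 CPM), Itgax (7.16 CPM), Cd274 (20.7 CPM) and Lipn (0.924 CPM), and IL-4 PE replicate 1 for Ephx1 (54.9 CPM), Itgax (76.8 CPM) and Mmp12 (65.6 CPM). IL-4 PE replicate 4 was the highest for Neurl3 (14.7 CPM), Selenbp1 (67.0 CPM) and Tnfrsf9 (6.04 CPM). IL-4 PBS replicate 4 was the highest for Il17ra (62.0 CPM). Tgtp2 stood apart in IFNγ PBS replicate 5 (0.403 CPM) and in IL-4 PE replicate 5 (0.128 CPM), and Gbp5 in IL-4 PE replicate 3 (0.072 CPM), each at a level near detection. Cxcl2 was highest in IFNγ PBS replicate 6 (54.8 CPM), and Myo1d lowest in IFNγ PE replicate 4 (51.6 CPM). No library was left out for this.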

How the results depend on the processing

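At a fold of 2 the called genes were 1246 for the difference, 979 with IFNγ and 325 with IL-4, with 48 opposite, 54 shared, 611 IFNγ only and 144 IL-4 only. Without the replicate set term they were 864, 1051 and 175, with 41, 34, 546 and 61. With at least 10 counts in every library, which tested fewer genes, IFNγ had 1314 and IL-4 418, with 112 opposite, 73 shared and 144 IL-4 only. With the SE libraries in the fit 107 genes were opposite, in replicates 4–6 alone 112 were opposite and 81 shared, and among protein-coding genes alone 172 were of IL-4 only. Without each library in turn the difference had 2366 to 2660 genes, IFNγ 2031 to 2416, IL-4 661 to 787, opposite 160 to 194, shared 115 to 140, IFNγ only 1138 to 1359 and IL-4 only 237 to 294. Leaving out some IFNγ libraries of replicates 4–6 also changed the TMM reference. With that other reference 184 genes were opposite, of which 162 were shared with the 179, and 55.0% of differences were higher with IFNγ, against 45.6%. Of single genes, the difference of Clec7a turned to −0.14 and that of Marcksl1 to −0.11 in replicates 1–3 alone, that of Myo1d to 0.24, and without single libraries Marcksl1 lay between −0.021 and 0.15 and Myo1d between −0.15 and 0.075. None of these 3 differences was called. The causes were not tested. Low depth limits genes at few counts in the IL-4 table.

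No source gives equal replicate numbers a shared origin, and correlations over 0.1 in every pair were required to treat them as pairs: same-numbered PBS and PE libraries correlated at −0.143 to 0.0275 in the IFNγ table (own number best in 0 of 6) and at 0.0604 to 0.304 in the IL-4 table (5 of 6, a hint of pairing in that table from the data and not from the design). With a replicate block 2464 differences, 2130 IFNγ and 704 IL-4 changes were called, with 179 opposite genes (162 of them the same), 122 shared, 1205 IFNγ only and 254 IL-4 only. Cx3cr1 became lowered with both and Mmp12 an opposite gene.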

Other observations

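A few genes outside the lists were chosen after their values were seen, as they are known to be induced when oxygen is low. P4ha2, a prolyl hydroxylase of collagen, had a mean of 7.57 CPM in PBS and 1.09 CPM in PE with IFNγ (n = 6 each, log2 change −2.74 ± 0.54) and 4.66 and 6.12 CPM with IL-4 (0.39 ± 0.48), a difference of −3.12 ± 0.72 (edgeR adjusted p = 0.00171). Adm, the peptide adrenomedullin, went from a mean of 4.75 to 0.363 CPM with IFNγ and from 6.16 to 6.82 CPM with IL-4 (difference −4.04 ± 1.09, adjusted p = 0.00628). For Bnip3, a mitophagy receptor, the means were 80.5 and 33.8 CPM with IFNγ and 152 and 227 CPM with IL-4, and for Pdk1, which inhibits pyruvate dehydrogenase, 62.0 and 37.3 CPM and 119 and 148 CPM. Ankrd37 changed by −2.82 and 1.42, and its IL-4 change was not called (adjusted p = 0.0589) but was without IFNγ PBS replicate 1 (adjusted p = 0.0373), IL-4 PBS replicate 4 (adjusted p = 0.0105) or IL-4 PE replicate 6 (adjusted p = 0.0463). The other 4 kept the class of IFNγ only in all 24 fits that left out 1 library. Not every such gene moved: Slc2a1, the glucose transporter GLUT1, had changes of 0.19 and 0.21, and Car9, a carbonic anhydrase, of 0.50 and 0.22, none of them called.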
